A study of Mus musculus with 11 samples.

Results

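*Ss18* and 9 further genes of the SWI/SNF (BAF) chromatin remodelling complex were followed in single 8-cell mouse embryos with and without functional *Prdm10*. The 10 genes (*Ss18*, *Ss18l1*, *Smarca4*, *Smarca2*, *Smarcb1*, *Smarcc1*, *Smarcc2*, *Smarcd1*, *Smarce1* and *Arid1a*) were taken by symbol from the 54146 genes in each table, and all 10 had a mean normalised read count (baseMean) above 10. *Ss18* was chosen on its fall in mutant embryos, so its difference between genotypes is given as a description, without a test. The comparison asked whether *Ss18l1* or other subunits move with *Ss18*. Each library was made from 1 C57BL/6 embryo at embryonic day 2.5, from intercrosses of mice heterozygous for a *Prdm10* allele that lacks exon 5. This deletion was constitutive, derived from a targeted embryonic stem cell clone by FLPe and then ACTB-Cre, so it was carried by every cell of the embryo. The 6 control embryos (Prdm10 WT/HET) were wild-type or heterozygous and were not told apart, and the 5 mutants (Prdm10 KO) were homozygous for the deletion. The genotype groups were set by qRT-PCR for the deleted exon. Batch 1 (16 cycles of PCR pre-amplification) held 3 controls and 2 mutants, and batch 2 (13 cycles) held 3 controls and 3 mutants.

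BAF complexes use the energy of ATP to slide or evict nucleosomes. Each contains 1 ATPase, either SMARCA4 or SMARCA2, with members of the SMARCC and SMARCD families. The canonical and PBAF forms also hold SMARCB1 and SMARCE1, which the non-canonical form lacks. ARID1A belongs to the canonical form of the complex, and SS18 sits with the ATPase. SS18 is best known for its fusion to SSX proteins in synovial sarcoma, and its paralogue SS18L1, also called CREST, takes its place in the BAF complexes of neurons. In the mouse, maternal SMARCA4 is needed for activation of the embryonic genome, and embryos lacking *Smarca4*, *Smarcb1* or *Smarcc1* die around implantation. PRDM10 is a zinc finger protein that binds DNA.

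The DNA sequence used in the study's gel shift assays bears on the promoters of these genes. The wild-type probe and its mutated version, designed by the study, were read from its oligonucleotide list and differed at 8 of 28 bases, which are in capitals here:
WT probe: ctggcacagTGGTcgcGCCCggcccgcc
MUT probe: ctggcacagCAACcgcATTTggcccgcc
The letters set apart by these bases, TGGTNNNGCCC, were searched on both strands of the RefSeq promoter windows (GRCm38.p6), each 300 bases long with 250 before the start and 50 after. Of 32851 windows, 476 (1.45%) held these letters. Windows were found for 22 of the 29 BAF subunit genes considered here, 8 of the 10 members among them, and only that of *Ss18l1* held the letters. *Smarce1* and *Ss18* had no entry in the promoter table. The match in *Ss18l1* is on the other strand (GGGCNNNACCA), from base 24 to base 34 after the RefSeq start, and begins 3 bases before the first exon of the GENCODE annotation and runs into its 5′ untranslated region. It is shown at the centre of a stretch of chr2:180042497-180042526 (plus strand, GRCm38.p6), with the matching bases in capitals:
Ss18l1 start region: gggcagggcGGGCggaACCAccgaagctca
*Ss18* and *Ss18l1* were the 2 of 10 members on the list of genes with a PRDM10 binding site in mouse embryonic stem cells, against 326 (3.12%) of the 10448 genes tested here. *Ss18* was chosen on its fall in mutants, and the paper treats it as a candidate gene regulated by PRDM10. Its place on the list is therefore not independent of that choice, and of the other members only *Ss18l1* was listed. Over the 29 BAF genes the list held 3 (10.3%), the third being *Bcl7c*, and over 20 ATPases of other remodellers it held 2 , so the members were not alone on it. A match of letters or a place on that list is a description and says nothing of a site used in these embryos.

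Library depth, as summed expected counts, spanned 3534735 to 7195942 for the controls and 5402858 to 8265840 for the mutants, and no 2 libraries were alike within sampling noise. Most cleavage-stage markers were detected. The summed level of 8 such genes, most of it from *Dppa3*, was 5978 to 7448 TPM (a level per transcript length, scaled alike across libraries) in controls and 5988 to 7113 TPM in mutants, and *Sox2* ranged from 0 to 1.85 TPM. Oocyte markers (6 genes) summed to 29.5 to 68.3 TPM in controls and 34.2 to 62.6 TPM in mutants. The 7 genes of oviduct, follicle or other maternal cells summed to at most 0.81 TPM in batch 1 in either genotype. In batch 2 they summed to 1.62 to 27.1 TPM in controls (median 4.21) and 5.60 to 32.2 TPM in mutants (median 15.8), and the part of this RNA in the genotype comparison was not tested. *Ovgp1*, an oviduct glycoprotein, led that list with 1.45 to 30.1 TPM in batch 2. The targeted gene did not pass the threshold in counts. *Prdm10* ranged from 124 to 381 normalised reads among controls and from 104 to 202 among mutants (log2 fold change -0.66 ± 0.26, SE; adjusted p = 0.215 by DESeq2). Its level per transcript length did not overlap, at 11.1 to 24.8 TPM in controls and 4.88 to 8.16 TPM in mutants. The length used for that scale averaged 3011 bases in controls and 4746 in mutants, so a difference in length enters this separation.

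*Ss18* (ENSMUSG00000037013.15) lies on chromosome 18 from 14624198 to 14682914 (GRCm38, minus strand), and 11 transcripts are annotated for it. Its normalised read count in the batch 1 controls was 556, 684 and 389, and in the batch 1 mutants it was 130 and 121. In batch 2 the controls had 420, 938 and 468, and the mutants 98.1, 28.2 and 126. All 5 mutants were therefore below all 6 controls, in both batches, with no overlap. Controls averaged 576 ± 207 (SD, n = 6) and mutants 101 ± 42.3 (SD, n = 5), which is 17.5% of the control mean. That share was 23.1% in batch 1 and 13.8% in batch 2. The fitted log2 fold change was -2.52 ± 0.34 (SE), with -2.10 in batch 1 alone and -2.85 in batch 2 alone. The mutants were not uniform, since mutant replicate 2 had 4.90% of the control mean and mutant replicate 4 had 22.6%.

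The same separation was seen on the scale per transcript length. The level of *Ss18* was 24.6 to 58.2 TPM in controls and 1.33 to 9.49 TPM in mutants. In controls *Ss18* stood between *Smarcb1* and *Smarcc1* by mean TPM, and in mutants it stood between *Smarca4* and *Smarca2*. In libraries made from whole embryos, fewer cells that express a gene and less of its RNA per cell cannot be told apart.

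*Ss18l1* (ENSMUSG00000039086.9; chromosome 2 from 180042509 to 180070201, plus strand) was close to the limit of detection in both genotypes. Its normalised read count was 10.7, 36.4 and 18.2 in the controls of batch 1 and 18.4 and 0 in the mutants. In batch 2 it was 56.3, 8.69 and 7.75 in the controls and 3.77, 10.7 and 29.3 in the mutants. The groups overlapped, and the most extreme values on either side came from 1 control with 68 reads and 1 mutant with none, where a count of 0 allows up to 3 reads. The log2 fold change had a 95% interval from -2.57 to 0.64 around -0.96 ± 0.82 (SE), and the adjusted p was 0.72 by DESeq2 and 0.809 by the edgeR quasi-likelihood test. It was -1.22 in batch 1 alone and -0.76 in batch 2 alone, and -0.22 without control replicate 1. At this depth a fall as large as that of *Ss18* was not excluded for *Ss18l1*, nor was a rise of up to 1.56-fold. *Ss18l1* was the only one of the 9 other members whose interval reached the value of *Ss18*.

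**Figure D1:**
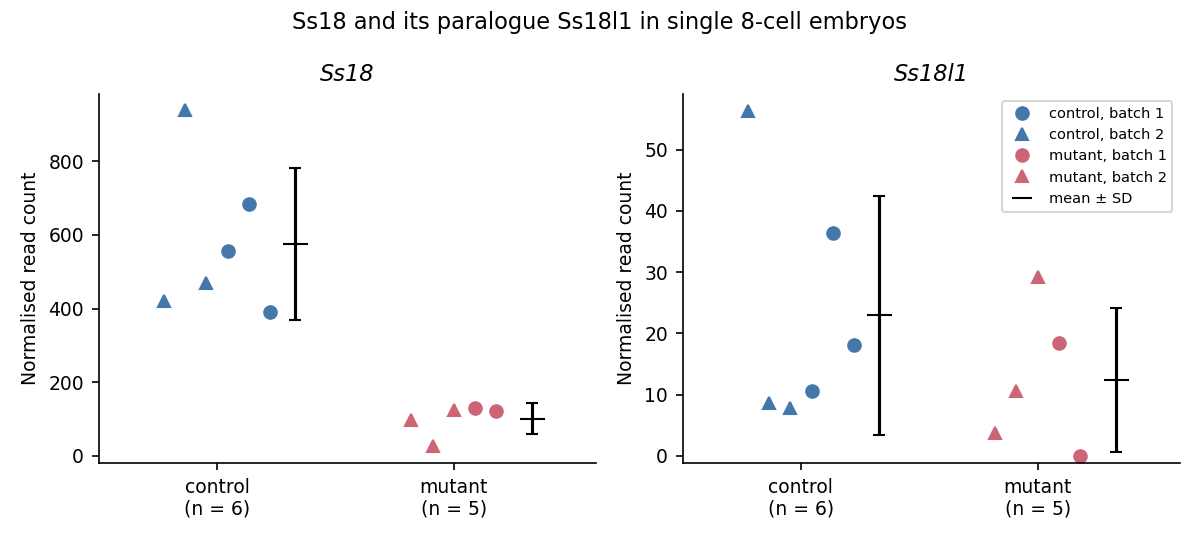
Normalised read counts of *Ss18* (left) and *Ss18l1* (right) on linear axes, 1 point per embryo, with blue controls and red mutants, circles for batch 1 and triangles for batch 2, and the mean ± SD beside each group. The 5 mutants lie between 28.2 and 130 for *Ss18*, below the lowest control at 389, whereas for *Ss18l1* the groups overlap and no embryo exceeds 56.3.

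The summed level of the 2 paralogues was lower in mutants. Together they reached 26.3 to 58.6 TPM in controls and 1.81 to 10.5 TPM in mutants. *Ss18* accounted for a median of 97.7% of that sum in controls (lowest 90.2%, highest 99.3%) and 90.3% in mutants (lowest 73.5%, and all of it in the mutant without an *Ss18l1* read). *Ss18l1* itself was 0.34 to 2.66 TPM in controls and 0 to 1.37 TPM in mutants. Its level was thus not above the control range in any mutant.

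None of the 9 other members passed the threshold between genotypes. That threshold was a DESeq2 adjusted p under 0.05 with batch as a term, and 1.45% of the 10448 tested genes passed it (151 genes). By the edgeR quasi-likelihood test, which called 0.306% of genes, none of the 9 passed either. None of the 9 had an unadjusted p under 0.05 with either tool. Over all tested genes, 1248 (11.9%) did with DESeq2 and 973 did with edgeR. At such shares a count of 0 among 9 genes is not unusual. For all 9 the values of mutants and controls overlapped, and the share of all genes that overlap was not counted. Of the 9, 6 were higher and 3 lower in mutants by fitted log2 fold change, with a median of 0.11, against a median of 0.00 over all tested genes. The median absolute log2 fold change was 0.12 for the 9 and 0.27 for all tested genes. The 95% interval lay within a 2-fold change in either direction for 6 members (*Smarca4*, *Smarca2*, *Smarcb1*, *Smarcc1*, *Smarce1* and *Arid1a*). For *Smarcc2* and *Smarcd1* it reached beyond a 2-fold rise.

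The ATPase genes were present at unequal levels. *Smarca4* (ENSMUSG00000032187.16; chromosome 9 from 21616169 to 21704230, plus strand) had a normalised read count of 691 to 991 in controls (median 777) and 669 to 1145 in mutants (median 964). The fitted log2 fold change was 0.17 ± 0.18 (SE; 95% interval -0.18 to 0.53; adjusted p = 0.793 by DESeq2). *Smarca2* (chromosome 19 from 26605050 to 26778322, plus strand), the alternative ATPase, had 26.9 to 57.3 in controls and 23.6 to 69.4 in mutants. The log2 fold change of *Smarca2* was 0.12 ± 0.41 (SE; adjusted p = 0.956 by DESeq2), and it was -0.27 in batch 1 alone and 0.43 in batch 2 alone. On the TPM scale *Smarca4* made up a median of 86.2% of the sum of both ATPases in controls (79.1% to 88.4%) and 90.0% in mutants (71.6% to 91.9%). These shares depend on the effective length, which was 6165 to 6281 bases for *Smarca4* and 1348 to 1846 for *Smarca2*, with 46 annotated transcripts. *Smarca4* was the more abundant ATPase transcript in every embryo of both genotypes, on counts as on TPM.

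Among the core subunits, 2 were abundant and overlapped almost fully between genotypes. *Smarcb1* (chromosome 10 from 75896769 to 75921617, minus strand), which encodes the subunit lost in rhabdoid tumours, had a normalised read count of 225 to 432 in controls and 258 to 422 in mutants. Its log2 fold change was 0.09 ± 0.18 (SE; 95% interval -0.26 to 0.45). *Smarce1* (chromosome 11 from 99209047 to 99231017, minus strand), which encodes a subunit with an HMG domain, had 393 to 963 in controls and 433 to 798 in mutants. For *Smarce1* the log2 fold change was 0.00 ± 0.16 (SE; 95% interval -0.32 to 0.32), the narrowest interval among the core subunits. By DESeq2 the adjusted p was 0.921 for *Smarcb1* and 0.997 for *Smarce1*.

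*Smarcc1* and *Smarcc2* encode paralogous scaffold subunits, of which *Smarcc1* was by far the more abundant. *Smarcc1* (chromosome 9 from 110117708 to 110240178, plus strand) had a normalised read count of 411 to 716 in controls and 537 to 843 in mutants (log2 fold change 0.11 ± 0.20, SE; adjusted p = 0.917 by DESeq2). The log2 fold change of *Smarcc1* was 0.26 with an offset for effective length and 0.25 with limma on log2(TPM + 1). *Smarcc2* (chromosome 10 from 128459248 to 128490482, plus strand) had 22.4 to 74.7 in controls and 33.2 to 78.5 in mutants (log2 fold change 0.34 ± 0.40, SE; adjusted p = 0.83 by DESeq2). The share of *Smarcc1* in their summed TPM had a median of 94.5% in controls and 93.9% in mutants, and was at least 88.3% in every embryo. *Smarcd1* (chromosome 15 from 99702129 to 99713991, plus strand), a subunit that contacts transcription factors, showed the highest fitted value of the 9. Its normalised read count was 22.2, 22.9 and 14.1 in the controls of batch 1 and 45.1 and 15.5 in the mutants. In batch 2 *Smarcd1* had 14.9, 20.9 and 22.3 in the controls and 15.1, 55.6 and 26.3 in the mutants. Thus 3 of 5 mutants exceeded every control and the other 2 were inside the control range. The log2 fold change of *Smarcd1* was 0.70 ± 0.48 (SE; 95% interval -0.25 to 1.65; adjusted p = 0.622 by DESeq2). It was 0.37 without mutant replicate 2 and 0.42 without mutant replicate 4. The libraries were not stranded, and 12.7% of the exon bases of *Smarcd1* are shared with 2 genes on the other strand, so reads there cannot be told apart.

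*Arid1a* (chromosome 4 from 133679008 to 133756769, minus strand), the DNA-binding subunit that defines the canonical complex, had the highest mean count of the 10. Its normalised read count was 723 to 1514 in controls (median 1162) and 743 to 1675 in mutants (median 1312). The log2 fold change of *Arid1a* was 0.00 ± 0.15 (SE; 95% interval -0.30 to 0.29; adjusted p = 0.997 by DESeq2). On the fold scale that interval ran from 0.811 to 1.23.

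**Figure D2:**
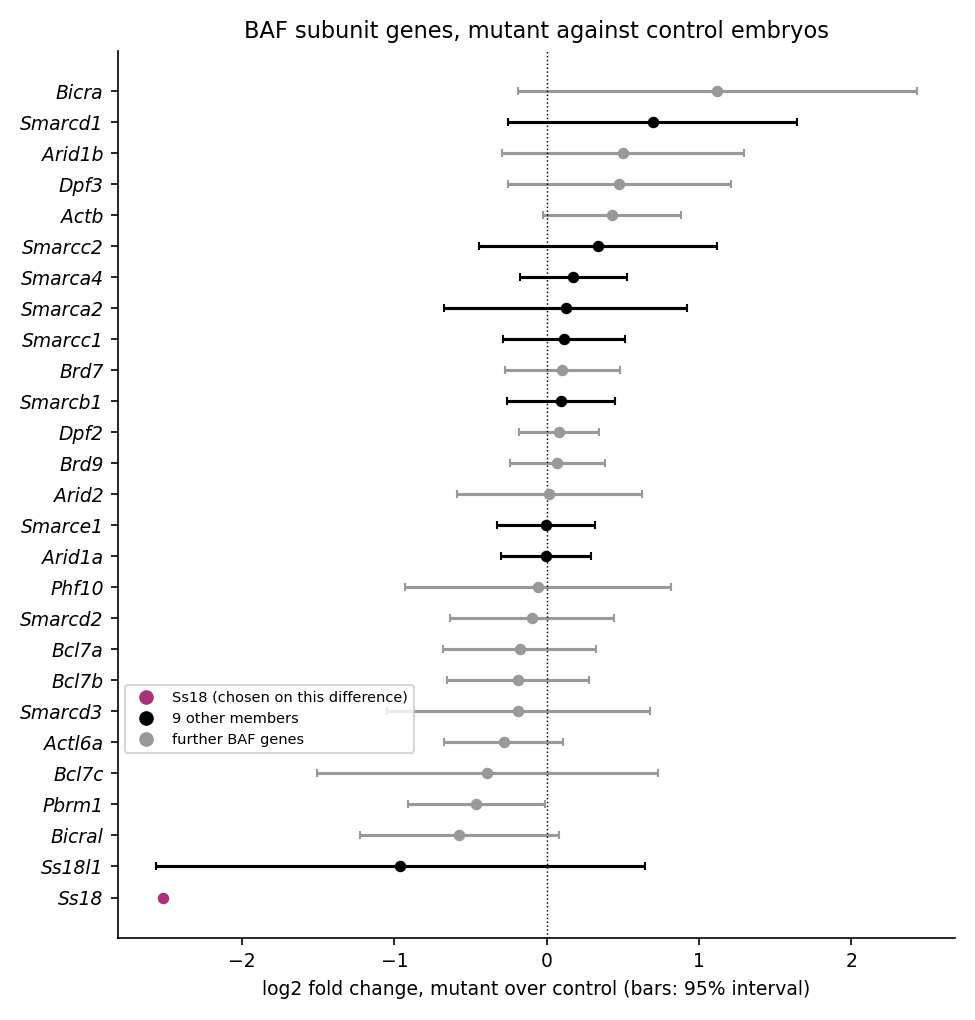
Fitted log2 fold change of mutant over control embryos for the 27 BAF subunit genes that could be tested, with bars for the 95% interval of every gene but *Ss18*, which was chosen on this difference and is shown as a point at -2.52. The other members (black) and further BAF genes (grey) lie between -0.96 and 1.12.

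The order of levels set by length was compared in controls. By mean TPM it ran *Smarce1* (106 ± 45.2, SD, n = 6), *Smarcb1* (49.5 ± 15.9), *Ss18* (38.2 ± 14.4), *Smarcc1* (36.1 ± 10.02), *Arid1a* (32.5 ± 6.51), *Smarca4* (27.97 ± 5.20), *Smarca2* (5.04 ± 1.42), *Smarcc2* (2.36 ± 0.87), *Smarcd1* (1.36 ± 0.38) and *Ss18l1* (1.16 ± 0.95). The upper part of this order differed between batches. Among batch 2 controls *Arid1a* (36.9 ± 3.70 TPM, SD, n = 3) stood next after *Smarce1*, close to *Ss18* (36.2 ± 19.1) and *Smarcb1* (36.1 ± 5.83), and among batch 1 controls *Arid1a* (28.2 ± 6.01) stood below *Smarca4* (28.9 ± 6.32). Over both batches the ranges of neighbours did not overlap between *Smarca4* and *Smarca2*, and they overlapped for every other pair of neighbours. Within the embryo, *Smarce1* was above *Smarcb1*, *Smarca4* above *Smarca2*, and *Smarca2* above *Smarcc2* in 6 of 6 controls. The other neighbours kept their order in 3 to 5 of the 6 controls. The genes thus fell in a group of 6 at 22.1 TPM or more in every control and a group of 4 at 7.1 TPM or less. In mutants *Ss18* left the upper group, with 6.69 ± 3.25 TPM (SD, n = 5), and *Smarcd1* had 2.05 ± 1.16 TPM.

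**Figure D3:**
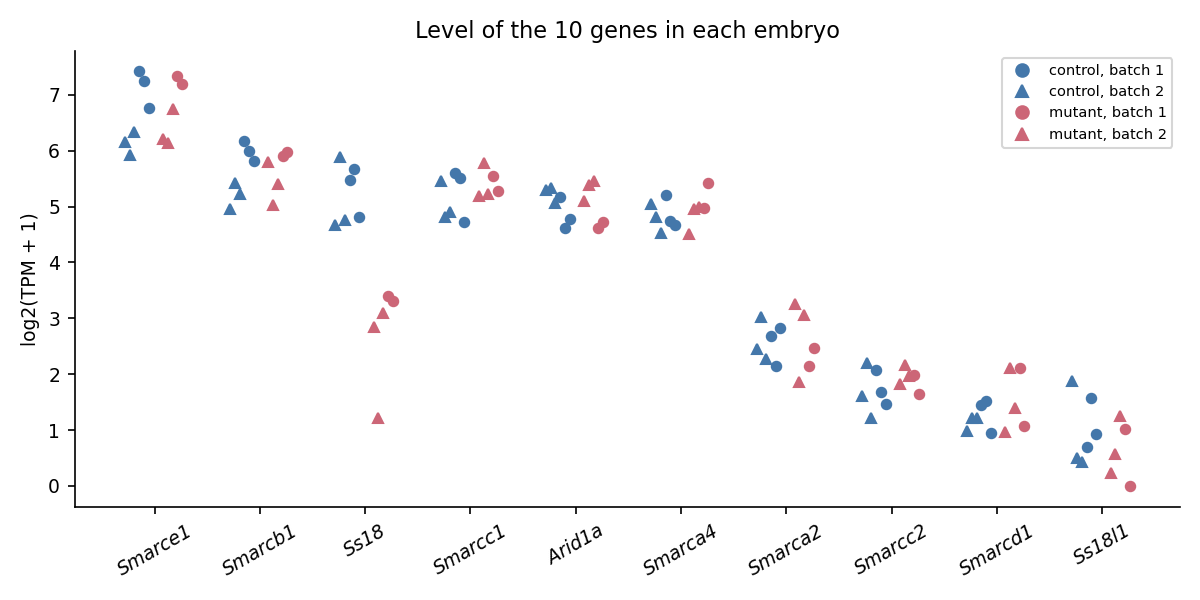
Level of each of the 10 genes in every embryo as log2(TPM + 1), ordered by the control mean, with blue controls, red mutants, circles for batch 1 and triangles for batch 2. *Ss18* is the 1 gene whose mutants, at 1.33 to 9.49 TPM, lie clear of the controls, at 24.6 to 58.2 TPM.

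The wider complex was examined through 19 further subunit genes. Of the 28 BAF genes other than *Ss18*, 26 could be tested, since *Actl6b* was at 0 in every library and *Dpf1* had a baseMean of 1.25. None of the 26 passed the threshold with DESeq2 or edgeR. Of these, 14 were higher and 12 lower by fitted value, with a median log2 fold change of 0.04. An unadjusted DESeq2 p under 0.05 was found for 1 of the 26 (3.85%), against 11.9% of all tested genes. With edgeR it was found for 0 of 26, against 973 of the 10448 tested genes. The 1 gene found with DESeq2, named after its values were seen, was *Pbrm1*, which encodes the polybromo subunit of the PBAF form (log2 fold change -0.46 ± 0.23 (SE), DESeq2 adjusted p of 0.415). The 3 genes specific to the non-canonical form, *Bicra*, *Bicral* and *Brd9*, had fitted values of 1.12, -0.57 and 0.07. None of these passed, and the first and second spanned the extremes of the further subunits.

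ATPases of other SNF2-type remodellers were taken for comparison. Of 20 such genes 17 could be tested, and none passed the threshold with either tool. An unadjusted DESeq2 p under 0.05 was found for 3 of 17 (17.6%), all lower in mutants, against 11.9% of all tested genes. With edgeR it was found for 2 of 17, against 973 of the 10448 tested genes. The 3 genes were *Chd8*, *Chd7* and *Chd1*, named after their values were seen, and edgeR's 2 were *Chd8* and *Chd7*. *Chd8* came closest to the threshold (log2 fold change -0.60 ± 0.18, SE; adjusted p = 0.0611 by DESeq2) (0.37 with edgeR). Whether BAF genes and other remodellers differed was not tested.

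The genes most like *Ss18* over the 11 embryos were not BAF genes. Likeness was the Pearson correlation of log2(normalised count + 1) centred within batches, ranked over 10488 other genes. The 5 highest were *Selenow* (r = 0.94), a selenoprotein, *Lamtor3* (0.93), a subunit of the Ragulator complex, *Dut* (0.91), the dUTP pyrophosphatase, *Ccnc* (0.90), cyclin C, and *Polr1a* (0.90), the largest subunit of RNA polymerase I. The embryos share genotype, so this measure largely follows the difference that chose *Ss18*. *Selenow*, for example, averaged 680 ± 314 normalised reads (SD, n = 6) among controls and 44.2 ± 14.6 (SD, n = 5) among mutants, a log2 fold change of -3.90. The other 4 differed less, with log2 fold changes of -0.55 for *Lamtor3*, -0.64 for *Dut*, -0.59 for *Ccnc* and -0.79 for *Polr1a*, and for *Lamtor3* and *Dut* the groups overlapped. Among the members the coefficient was highest for *Ss18l1* (0.33, rank 2055) and lowest for *Smarcd1* (-0.51, rank 9586), and it was below 0 for 6 of the 9. Values below 0 were common over all genes, since *Smarcb1*, at 0.01, had rank 4954 of 10488. These coefficients are a description and no test of whether subunits move with *Ss18*.

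A comparison that the choice of *Ss18* did not use was that of the 2 batches. The embryos of each batch were collected and processed separately, and the batches also differed in the number of PCR cycles. These differences cannot be told apart. Genotype was a term of the fit. Of the 10 members 3 passed the threshold, against a background of 27.9% of the 10448 tested genes, so the share among members was near that of all genes. *Arid1a* was lower in batch 1. Its normalised read count was 723 to 1035 in the 5 embryos of batch 1 and 1289 to 1675 in the 6 of batch 2, without overlap, and the log2 difference (batch 1 over batch 2) was -0.77 ± 0.15 (SE; DESeq2 adjusted p = 9.82e-06, edgeR 0.00178). *Smarce1* went the other way, with 732 to 963 in batch 1 and 393 to 595 in batch 2, a log2 difference of 0.70 ± 0.16 (SE; DESeq2 adjusted p = 3.00e-04, edgeR 0.00673). *Smarcb1* was 374 to 432 in batch 1 and 225 to 406 in batch 2, a log2 difference of 0.46 ± 0.18 (SE; DESeq2 adjusted p = 0.0487, edgeR 0.0928). The *Smarcb1* ranges overlapped in 1 embryo of batch 2, and its call was made by DESeq2 alone and was lost when any embryo but mutant replicate 1 was left out. In the 6 controls alone *Smarce1* was the 1 member called, with a log2 difference of 0.76 ± 0.27 (SE; DESeq2 adjusted p = 0.0434). The share of all genes called in the controls alone was not counted, so this count has no background. There *Arid1a* had -0.67 ± 0.25 (DESeq2 adjusted p = 0.0506) and *Smarcb1* 0.58 ± 0.29 (DESeq2 adjusted p = 0.172), in the same directions as over all embryos. *Ss18* did not pass, with a log2 difference of 0.16 ± 0.34 (SE; DESeq2 adjusted p = 0.778).

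**Figure D4:**
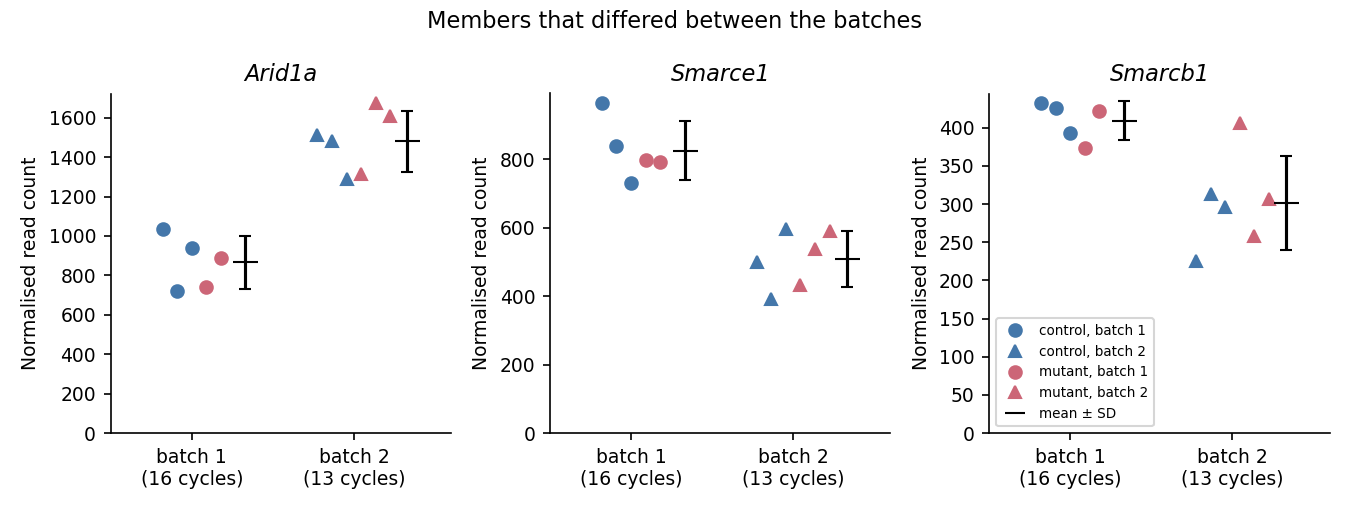
Normalised read counts of *Arid1a*, *Smarce1* and *Smarcb1* by batch on linear axes that start at 0, 1 point per embryo, with blue controls, red mutants and the mean ± SD of each batch. Both genotypes lie together within a batch, at 866 ± 132 and 1480 ± 156 for *Arid1a* and at 825 ± 86.2 and 508 ± 82.8 for *Smarce1*, in batch 1 and batch 2 respectively.

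The batch difference over all genes varied with transcript length. The median log2 difference (batch 1 over batch 2) was -0.40 among the 2090 tested genes with a mean effective length of at least 3421 bases, which include *Arid1a*. It was 0.18 among the 2089 genes of 1116 to 1718 bases, which include *Smarce1* and *Smarcb1*, and -0.24 among the 2090 shortest. In the 2 classes between 1718 and 3421 bases it was 0.27 and 0.15, so the pattern did not run one way with length. Members of one class were not alike. Among the longest genes the value was -0.38 for *Ss18l1*, near the median of that class, but -0.01 for *Smarca4*, 0.03 for *Smarcc1* and -0.12 for *Smarcc2*. *Smarca2* had -0.34 in the class of *Smarce1*. In the class of 2421 to 3421 bases *Ss18* had 0.16 and *Smarcd1* -0.03. Beyond the members, *Dpf2*, another subunit of the canonical complex, was higher in batch 1 (log2 difference 0.50 ± 0.13, SE; DESeq2 adjusted p = 0.0019). Of the 17 other remodellers tested, 8 passed and all 8 were lower in batch 1, where of the 2911 genes called over all features 1466 were higher and 1445 lower. Neither this share nor its direction was tested against the other genes. The maternal marker *Ovgp1* was also higher in batch 2. The part of length, cycle number, separate processing or maternal RNA in these differences was not tested.

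The difference between genotypes was itself compared between batches with an interaction term. None of the 9 members other than *Ss18* passed, against 0.0573% of the 10472 genes tested (6 genes). None of the 9 had an unadjusted p under 0.05 with DESeq2 or with the edgeR quasi-likelihood test. Over all genes, 4.31% did with DESeq2 and 339 genes did with edgeR. For *Ss18*, where the values within batches entered its choice, the log2 fold changes of the batches are given above as a description. The fitted interactions of the 9 had standard errors of 0.31 to 1.71 on the log2 scale. 

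The effective length that RSEM derives from the isoforms it assigns reads to gave a readout other than the count. With limma on log2 effective length, 0.0% of 7511 genes passed, and so none of the 9 members with a length that varied. An unadjusted p under 0.05 was found for 2 of the 9 (431, or 5.74%, of all genes), *Smarce1* and *Smarcc1*, both shorter in mutants. The log2 difference was -0.18 for *Smarce1* (limma adjusted p of 0.843) and -0.14 for *Smarcc1* (limma adjusted p of 0.849). The effective length of *Ss18* was 3075 to 3441 bases in controls and 3105 to 4079 in mutants, where the embryo with the fewest reads had the longest (exact permutation test, two-sided, p = 0.641). The single annotated transcript of *Ss18l1* gave it 4269 bases in every library. *Prdm10*, by contrast, was longer in every mutant than in any control, with the smallest p that the exact two-sided permutation test can give here (p = 0.00433) and a limma adjusted p of 0.0642.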

How the data were processed

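RNA of 11 single embryos (6 control, 5 mutant) was sequenced by Smart-seq2, from oligo-dT primed cDNA, in 2 batches. Groups and batches came from the labels, and replicates were numbered in order, so numbers pair no embryos. The authors mapped reads with STAR (2.6.0c) to GRCm38.p6 and quantified them with RSEM. The deposited tables hold, per gene, an expected count (reads shared between genes are divided, so values need not be whole), a TPM (length-normalised and scaled to a common total), other RSEM columns deposited by the authors (effective length, and TPM credibility bounds that were not used because many do not contain their TPM), and no molecular identifiers. The authors' own comparison table (fold changes and p-values) was not used.

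Expected counts were rounded. The main test was the DESeq2 (1.42.0) Wald test in R (4.3.3) with batch and group as terms and Benjamini-Hochberg adjustment over all genes, as the study's methods used DESeq2. A gene was called at an adjusted p under 0.05 if its baseMean exceeded 10. The edgeR (4.0.16) quasi-likelihood test and limma (3.58.1) on log2(TPM + 1) were alternatives, and limma with batch as a term tested log2 effective length where it varied by more than 1%. A 95% interval is the log2 fold change ± 1.96 SE. Symbols were found for 54079 of 54146 identifiers (99.88%), and coordinates come from GENCODE annotation on the build the authors used, in a later release. Nothing in the labels says whether embryos shared a litter. Depth was 3534735 to 8265840 counts per library, and precision from counts covers counting error only.

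The members and the gene lists were chosen with earlier results of these data known. The genes named were the 10 members, any gene of the BAF or other remodeller lists past the threshold, the 5 genes most correlated with *Ss18*, and *Prdm10*. Other genes named were chosen after their values were seen. The alternatives tried were the tool, the pseudocount, the normalization, an effective-length offset, the low-count filter, Cook's distance filter, the batch term, fits within a batch and fits without 1 embryo.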

Additional observations from a re-analysis of the deposited data

How the results depend on the processing

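The counts of 0 genes past the threshold, for the 9 members other than *Ss18*, the 28 BAF genes, the 20 other remodellers, the interaction and the effective length, stayed at 0 under each alternative run for them and with each of the 11 embryos left out in turn. The log2 fold change of *Ss18* ranged from -2.85 (batch 2 alone) to -2.10 (batch 1 alone), and from -2.66 to -2.26 with an embryo left out. The count of members that differed between batches was 3, was 2 to 3 with an embryo left out, 2 with edgeR, and 1 (*Smarce1*) in the 6 controls alone. Fewer samples entered the fit of the controls alone, and its share over all genes was not counted. None of 90 further member values passed the threshold, and 14 had the opposite sign. For *Smarca2* these were -0.023 and -0.040 with limma on log2(TPM + 1) and log2(TPM + 0.1) and -0.273 in batch 1 alone, and for *Smarcb1* -0.061 in batch 1 alone. For *Smarce1* they were 0.010 with edgeR, 0.183 and 0.185 with limma at either pseudocount, 0.002 with TMM factors, 0.198 with the length offset and 0.065 in batch 2 alone. For *Arid1a* they were 0.007 with edgeR, 0.001 with TMM factors, 0.099 without the batch term and 0.101 in batch 2 alone. Of 99 values with an embryo left out, 16 had the opposite sign and none passed. Their ranges were -0.058 to 0.281 for *Smarca2*, -0.017 to 0.154 for *Smarcb1*, -0.007 to 0.180 for *Smarcc1*, -0.079 to 0.065 for *Smarce1* and -0.052 to 0.062 for *Arid1a*. In the same way the value ranged from -1.61 to -0.22 for *Ss18l1*, from 0.37 to 0.91 for *Smarcd1*, from 0.16 to 0.65 for *Smarcc2* and from 0.05 to 0.27 for *Smarca4*, and the cause was not tested. No paired analysis was possible because the labels give no litter by which a mutant could be paired with a control.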
